A study of Mus musculus with 378 samples.

Results

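Foxp3-negative CD4 cells are the CD4 T cells of a tumour in which no RNA of Foxp3, the gene of the factor that defines regulatory T cells, was measured. They were chosen by measured values: a single-cell library with CD4 in its title, at least 1000 genes above 0 FPKM and Foxp3 at exactly 0 FPKM. FPKM is the number of fragments of a transcript per kilobase of its length and per 1000000 fragments of the library. The rule gave 88 cells: 39 of the 94 CD4 libraries labelled as lacking Il27ra (KO) and 49 of the 94 labelled wild type (WT), of the 374 single-cell libraries of the series.

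The study asked which genes IL-27 induces in T cells inside a tumour, and profiled T cells from B16F10 melanoma, a transplantable mouse skin tumour line. The cells came from tumours of C57BL/6 mice labelled IL27raKO or wild type, were lysed in plates and made into Smart-seq2 libraries, which cover transcripts from end to end. No treatment other than the tumour itself, no age and no sex are named, and both genotypes carried the tumour. The protocol speaks of CD8+ T cells, so that CD4 rests on the sample titles and on the genes described below. No animal is named, and the titles of the KO CD4 libraries carry another animal word (bird) than those of WT (dog) and p2 where those of WT carry p3. Each genotype therefore counts as 1 sample, and genotype, animal and whatever p2 and p3 stand for cannot be told apart. No test, standard error or p-value between genotypes was possible. SDs and intervals below describe cells of 1 sample.

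IL-27 is a cytokine of antigen-presenting cells whose receptor, the Il27ra chain paired with gp130 (Il6st), signals through Jak kinases to STAT factors such as Stat3. In CD4 T cells it is known for favouring Th1 commitment, for inducing Il10 and for raising coinhibitory receptors. Immediate early genes, such as Fos and Egr1, are transcribed within minutes of a receptor signal or of stress with no need for new protein. Cells in which Foxp3 read 0 need not lack the protein, since RNA of a gene is often missed in a single cell.

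Il27ra itself did not separate the genotypes. The gene lies on chromosome 8 from 84030294 to 84042589, minus strand (GENCODE M21 on GRCm38, used for the gene positions below). It was above 0 in 17 of 39 KO-labelled cells (43.6%, exact Clopper-Pearson 95% interval 27.8 to 60.4%) and in 26 of 49 WT-labelled cells (53.1%, 38.3 to 67.5%). On the log2(FPKM + 1) scale, which is used for all levels below, Il27ra ran from 0 through a median of 0 to 10.89 in KO-labelled cells and from 0 through 2.86 to 9.24 in WT-labelled cells. The means were 2.75 ± 3.34 (SD over 39 cells) and 3.41 ± 3.56 (SD over 49 cells), a difference of -0.66. Among the cells above 0 the mean levels were 6.30 and 6.42. In Foxp3-positive cells Il27ra was 1.34 higher in KO, and in the population libraries, 1 per genotype, 1.42 lower (-1.42). The sources used here do not say which exons the KO allele lacks, and reads of remaining exons would still count, so these values do not check the labels. Every direction below is between cells labelled KO and cells labelled WT.

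The label CD4 was borne out in most cells by Cd4, the coreceptor for class II. This gene was above 0 in 38 of 39 KO-labelled and 34 of 49 WT-labelled cells. Cd40lg, the helper ligand that licenses B cells and dendritic cells, was above 0 in 64.1% and 42.9%. Cxcr3, the receptor for the interferon-induced chemokines, was above 0 in 28.2% and 53.1%. Cd8a, the defining chain of the other T cell lineage, was above 0 in 2 and 4 cells and never above a level of 3.93. Cd8b1 was more frequent in KO, with 12 KO-labelled (30.8%) and 5 WT-labelled cells (10.2%) above 0. The summed level of Cd8a and Cd8b1 reached 9.45 in KO and 3.93 in WT. Cd4 together with Cd8a or Cd8b1 was above 0 in 13 KO-labelled and 4 WT-labelled cells, so the genotypes were not alike in this. The 9 pan-T markers were all detected, Cd3e in 92.3% of KO-labelled and 85.7% of WT-labelled cells.

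Setting Foxp3 to 0 did not remove regulatory T cell RNA. At least 3 of 10 core regulatory markers were above 0 in 19 of 39 KO-labelled cells (48.7%) and 23 of 49 WT-labelled cells (46.9%). The same count in Foxp3-positive cells was 37 of 39 and 30 of 30. Lrrc32, Gpr83 and Itgb8 were at 0 in every KO-labelled Foxp3-negative cell, while Tnfrsf18 was the most frequent marker, in 56.4% and 55.1%. Just above the threshold, the lowest Foxp3 value was 0.8 FPKM in KO and 8.26 FPKM in WT, against medians of 916 and 1213 FPKM over the Foxp3-positive cells. Foxp3 was at 0 in 50% of the KO cells kept (38.5 to 61.5%) and 62% of the WT cells kept (50.4 to 72.7%). The fewest genes in a Foxp3-negative cell kept were 1154 in KO and 1050 in WT, and the most in one left out were 977 and 557.

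The WT-labelled libraries were shallower. Genes above 0 had medians of 2500 in KO and 2119 in WT, and the reads estimated from the table had medians of 323456 and 174246. B2m, the light chain of class I that nearly all nucleated cells carry, was at 0 in 6 WT-labelled and 0 KO-labelled cells, and Cd3d, Cd3e and Cd3g were together at 0 in 2 and 1. The plot of depth against genes shows the 6 cells without B2m at the shallow end. In Foxp3-positive cells the medians were 2809 and 2822 genes. Markers of other cell types were mostly at or near 0: over all 7 fibroblast markers 0 KO-labelled cells had a value, and B cell markers other than Cd22 were at 0 in KO. Tyr (92.3% and 93.9%), Cxcr2 (94.9% and 89.8%), Csf3r (66.7% and 51%) and Xcr1 (53.8% and 40.8%) were found in both genotypes at mean levels of at most 3.17. The summed level of the 7 class II genes had a median of 0 in both genotypes and reached 93.9 in KO and 19.5 in WT. That of the 12 macrophage markers reached 55.1 and 9.59, and that of the 7 NK markers 25.0 and 10.9. Leaving out cells with at least 3 markers of other types (28 against 36 cells left) moved some list medians. That of costimulation and activation genes went to 1.27 from 0.74, of effector and cytotoxic genes to 1.12 from 0.53. That of heat shock and stress genes went to 0.82 from 1.38, and those of Th1 and interferon-stimulated genes are given below. Tyr and Xcr1 were among the markers counted. With them not counted, an alternative that was not planned, 36 against 48 cells were left. The 3 medians were then 0.87, 0.58 and 1.27. Results are therefore also given without the 1 KO-labelled and 6 WT-labelled cells that lack B2m or the Cd3 genes (38 against 43 cells left) and with every cell thinned to 100000 estimated reads (36 against 41 cells).

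**Figure D1:**
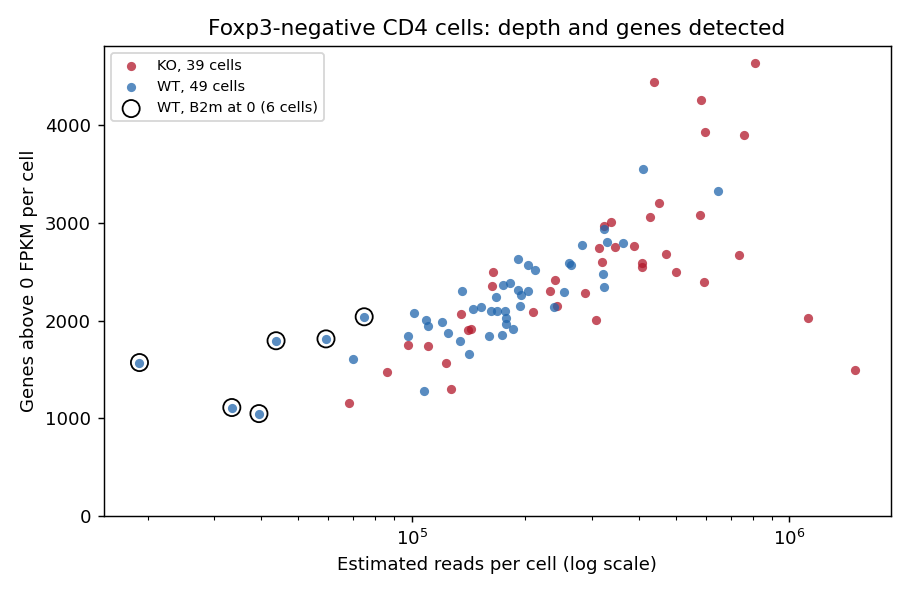
Genes above 0 FPKM (vertical axis) against estimated reads on a log scale (horizontal axis) for each Foxp3-negative CD4 cell, KO-labelled in red (39 cells) and WT-labelled in blue (49 cells). Black rings mark the 6 WT-labelled cells with B2m at 0, which have under 100000 estimated reads.

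A total of 8041 genes passed a filter of 10% of cells above 0 in either genotype. Of these, 12.5% (1005 genes) had a mean level at least 1 higher in KO-labelled cells and 1.26% a mean level at least 1 lower. The median over these genes was 0.23, and 66.6% of them were higher in KO. A total of 1473 genes entered through the KO-labelled cells only and 553 through the WT-labelled cells only. For these the filter set the direction of the share of cells above 0, though not that of the mean level. Without the cells lacking B2m or the Cd3 genes, 7.59% were at least 1 higher and 3.18% at least 1 lower, with a median of 0.12. Of the genes at least 1 higher there, 581 were among the 1005. Of the genes at least 1 higher or at least 1 lower, 90.9% were higher as reported and 78.4% with each cell scaled to a sum of 1000000. In thinned cells 10.5% of genes were at least 1 higher and 3.59% at least 1 lower. The cause of the excess of genes higher in KO was not tested, and list medians are read below beside the median of all genes and that of the housekeeping list. Counts of list members at least 1 higher or lower are to be read beside the 12.5% and 1.26% of all genes.

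That list holds 19 genes with a role in all cells, such as Actb and Gapdh. Of these, 13 were at least 1 higher in KO and 0 lower, with a median of 1.30. B2m had a median level of 13.08 in KO-labelled cells and 12.45 in WT-labelled cells, with lowest values of 8.71 and 0. Without the cells lacking B2m or the Cd3 genes the housekeeping median was 0.24 with 1 gene at least 1 higher, and in thinned cells it was 0.30 with 3. In cells matched on genes detected it stayed at 1.18 with 11.

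Immediate early genes were higher in KO-labelled cells, with Ier2, Dusp1, Egr1 and Fos among the 12 named genes of largest difference. Of the 26 genes of the list 25 passed the 10% filter, 6 of them through KO-labelled cells only. All 25 were higher in KO, 18 by at least 1, with a median of 1.46. The median was 1.14 (13 of 25 at least 1 higher) without the cells lacking B2m or the Cd3 genes and 1.25 (16 of 23) in thinned cells, where the housekeeping medians were those given above. In cells matched on genes detected the median was 1.37 (15 of 23), beside 1.18 (11 of 19) for housekeeping. In cells with Cd4 above 0 and both CD8 chains at 0 (25 against 30) it was 0.86, with 11 of 25 at least 1 higher, beside 0.23 for housekeeping and 0.14 for all genes.

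Ier2, a nuclear protein gene induced at once by growth factors and receptor signals, ran from 0 through a median of 9.35 to 13.05 in KO-labelled cells and from 0 through 0 to 9.77 in WT-labelled cells. It was above 0 in 34 of 39 cells (87.2%, interval 72.6 to 95.7%) and 23 of 49 (46.9%, 32.5 to 61.7%). The means were 8.44 ± 3.81 and 3.65 ± 4.11, a difference of 4.79. The gene lies on chromosome 8 from 84661331 to 84662852, 0.631 Mb from Il27ra. Both genotypes held cells at 0, and the upper range was reached in KO only, since the KO median lay close to the highest WT-labelled cell.

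Dusp1, a phosphatase that shuts off MAP kinases, ran from 0 through 10.75 to 14.08 in KO-labelled cells and from 0 through 7.60 to 13.35 in WT-labelled cells. It was above 0 in 37 of 39 and 32 of 49 cells, and the difference of means was 4.22. The genotypes overlapped over most of the range. Egr1, a zinc finger factor downstream of ERK, had medians of 7.58 and 0, highest values of 12.69 and 10.40, and was above 0 in 25 and 11 cells, with a difference of 4.21. Fos, an AP-1 subunit, had medians of 11.67 and 2.41 and highest values of 14.59 and 12.48. It differed by 3.17, mostly in level rather than in detection: it was above 0 in 69.2% and 57.1% of cells, and the mean among those was 11.52 in KO and 8.42 in WT.

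Further members followed the same direction with smaller differences. Nr4a1, an orphan nuclear receptor induced by T cell receptor signals, differed by 2.97 and was above 0 in 69.2% and 42.9%. Its relative Nr4a3 differed by 2.31 and was above 0 in 21 of 39 and 6 of 49 cells. Btg2 (2.47) and Ppp1r15a (2.33), which restrain growth and restart translation after stress, were close to these. Junb, an AP-1 subunit found in 39 of 39 and 42 of 49 cells, differed by 2.14, and by 0.85 without the cells lacking B2m or the Cd3 genes. Jun (0.15) and Jund (0.06) had nearly equal means.

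The level of the list varied widely between cells of 1 genotype. KO-labelled cells had 6 to 20 of the 26 immediate early genes above 0, with a median of 13, and WT-labelled cells 0 to 14, with a median of 10. The mean level over the 26 genes ran from 1.69 through 4.26 to 6.66 in KO-labelled cells and from 0 through 2.87 to 4.74 in WT-labelled cells. In 14 of 39 KO-labelled cells it lay above the highest WT-labelled cell, and in 10 of 49 WT-labelled cells below the lowest KO-labelled cell. For the housekeeping list these counts were 4 and 6. The 6 WT-labelled cells with B2m at 0 were all among the 10, and they were the 6 of the housekeeping list. Each WT-labelled cell with a mean level of 0 over the immediate early genes was 1 of these shallow cells. Across cells, the list's mean level had a Pearson r with genes detected of 0.20 in KO (39 cells) and 0.44 in WT (49 cells), against 0.75 and 0.61 for housekeeping, a description of values that share the library.

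**Figure D2:**
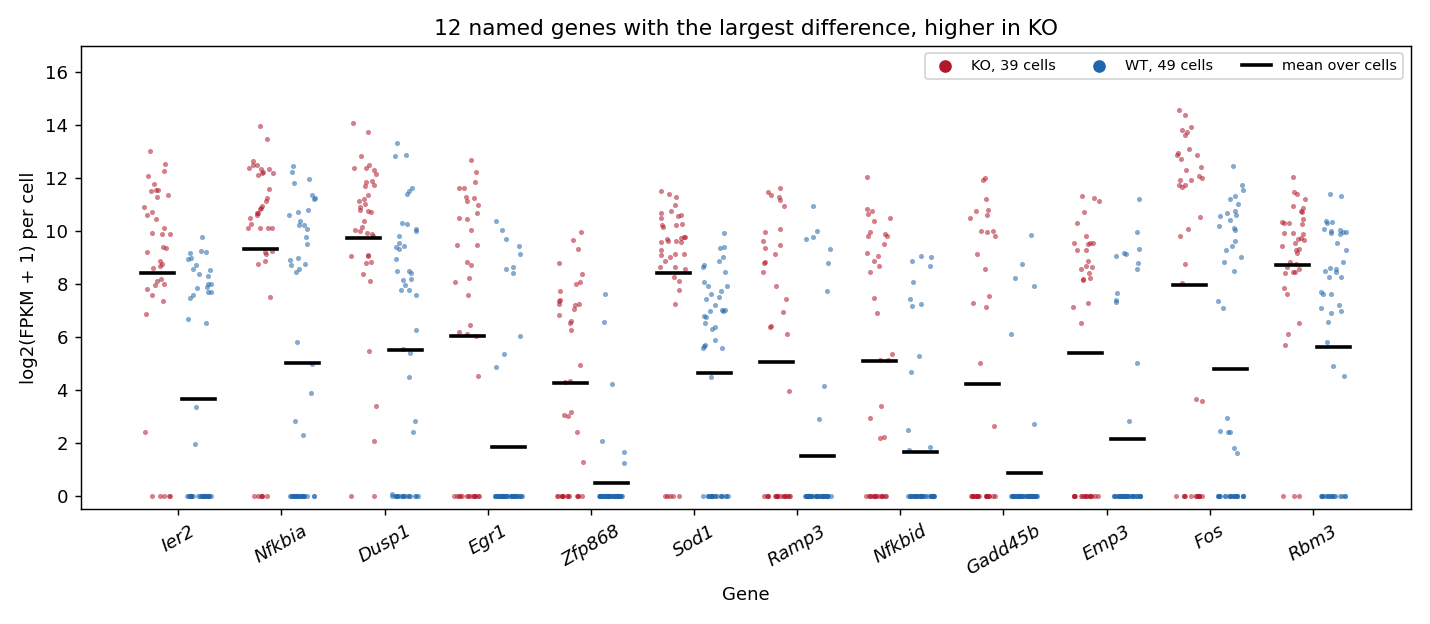
Level per cell, log2(FPKM + 1), of the 12 named genes with the largest difference in the KO direction, KO-labelled cells in red (39) and WT-labelled in blue (49), bars at the mean over cells. Cells at 0 are more frequent in WT for each gene, and the highest cell of Ier2 is at 13.05 in KO and 9.77 in WT.

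RefSeq promoters of GRCm38.p6, read over the 250 bases before each start, were matched for 9 of the 12 highest and 10 of the 12 lowest named genes; Ier2, Egr1, Rbm3, Rnf138 and Ctsw are named only. The motif TGACG, the core of the cyclic AMP element, was found on either strand in 5 of the 9 and 0 of the 10, and in 17.8% of 32851 promoters. The full element TGACGTCA, which contains the core on both strands, was found in 3 of the 9, 0 of the 10 and 1.55% of all promoters. A gene with several starts was counted where any of its promoters matched, so genes with more starts had more chances. The AP-1 motif TGANTCA and the CArG box of serum response factor were in 0 of either set (6.75% and 1.47% of all promoters), and the STAT motif TTCNNNGAA in 1 and 0 (7.02%). The NF-kB motif, searched in a loose form, was in 8 of 9 and 8 of 10 and in 45.8% of all promoters, so it sets no gene apart. These are matches of letters, not binding sites. The 250 bases before the start of Dusp1, Fos and Nfkbia are shown because these genes stood among the highest, with the core in capitals for the first 2 and the NF-kB letters for Nfkbia. They lie at chr17:26508473-26508722 (minus strand), chr12:85473640-85473889 (plus) and chr12:55492648-55492897 (minus), written 5′ to 3′ on the gene's strand.
Dusp1: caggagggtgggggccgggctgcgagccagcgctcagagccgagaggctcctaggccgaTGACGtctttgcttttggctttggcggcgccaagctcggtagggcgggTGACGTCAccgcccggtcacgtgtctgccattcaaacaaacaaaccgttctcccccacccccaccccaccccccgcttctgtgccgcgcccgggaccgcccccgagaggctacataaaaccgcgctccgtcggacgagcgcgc
Fos: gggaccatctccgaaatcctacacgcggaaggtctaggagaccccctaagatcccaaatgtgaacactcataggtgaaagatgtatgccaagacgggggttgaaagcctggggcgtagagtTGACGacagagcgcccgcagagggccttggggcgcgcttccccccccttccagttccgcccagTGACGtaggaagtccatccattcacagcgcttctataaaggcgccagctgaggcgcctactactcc
Nfkbia: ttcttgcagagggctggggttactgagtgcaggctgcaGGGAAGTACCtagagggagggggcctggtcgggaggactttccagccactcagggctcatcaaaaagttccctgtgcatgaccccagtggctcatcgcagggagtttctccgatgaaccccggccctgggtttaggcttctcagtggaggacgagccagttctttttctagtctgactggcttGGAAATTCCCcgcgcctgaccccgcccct
Dusp1 holds 3 cores, 2 of them both strands of 1 full element, and Fos 2, the nearer beginning 66 bases before the start.

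NF-kB subunits and their feedback genes stood beside the immediate early genes. Of 15 genes 13 passed the filter, 8 at least 1 higher in KO and 0 at least 1 lower, with a median of 1.46 (1.07 without the cells lacking B2m or the Cd3 genes, 1.30 thinned). It was 0.38, with 6 of 15 at least 1 higher, in cells with Cd4 above 0 and both CD8 chains at 0, where Tnfaip3 was at 0.26. Nfkbia, on chromosome 12 from 55489410 to 55492647, encodes the inhibitor that holds NF-kB in the cytoplasm and is itself an NF-kB target. It ran from 0 through 10.67 to 13.97 in KO-labelled cells and from 0 through 3.89 to 12.46 in WT-labelled cells. It was above 0 in 84.6% (69.5 to 94.1%) and 55.1% (40.2 to 69.3%), and the difference was 4.28. WT-labelled cells fell into some at 0 and some that reached the KO range. Nfkbid, a nuclear inhibitor family member, had medians of 5.13 and 0 and differed by 3.44. Tnfaip3, the A20 deubiquitinase, differed by 2.15, Nfkbiz by 2.01, Rel by 1.79 and Rela by 1.47. Nfkb1 (-0.08) and Tnip1 (-0.04) had nearly equal means. Gadd45b, a stress and NF-kB target, was above 0 in 18 of 39 and 6 of 49 cells and differed by 3.34.

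Receptors of the common gamma chain cytokines and the feedback genes of STAT5 were led by feedback genes. Of 18 genes, 18 passed the filter and were higher in KO, 9 by at least 1, with a median of 1.09 (0.61 without the cells lacking B2m or the Cd3 genes, 0.69 thinned). The housekeeping median was 1.30, with 13 of 19 at least 1 higher. Among cells matched on genes detected the 2 medians were 0.93 and 1.18. Foxp3-positive cells had 9 of these 18 genes at least 1 higher and 1 at least 1 lower. The list's median there was 0.89, beside 0.38 for housekeeping. Cish, a STAT5 target that restrains cytokine and antigen receptor signals, ran from 0 through 6.95 to 12.90 in KO-labelled and from 0 through 0 to 12.34 in WT-labelled cells, a difference of 2.92. The cells above 0 were 66.7% and 34.7% of each genotype and had like mean levels, 8.49 and 7.90, so the difference lay mostly in how many cells had a value. Pim1, a survival kinase induced by STAT5, differed by 2.06 and Socs1 by 1.55. Jak1, the kinase shared by these receptors and that of IL-27, differed by 1.75. Of the receptor chains, Il2rg differed by 1.25, Il7r by 1.22 and Il2ra by 0.69. Il7r turned to -0.70 once cells with 3 or more core regulatory markers were left out.

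Activation receptors and ligands were mixed. All 20 costimulation and activation genes passed, 2 of them through KO-labelled cells only. Of the 20, 8 were at least 1 higher and 1 at least 1 lower. The median was 0.74 (0.53 without the cells lacking B2m or the Cd3 genes). Cd69, an early activation marker that keeps cells in tissue, ran from 0 through 9.55 to 12.24 in KO-labelled cells and from 0 through 0 to 11.79 in WT-labelled cells, and differed by 2.74. Cd44, the memory and activation adhesion receptor, was above 0 in 33 of 39 and 23 of 49 cells and differed by 1.81, although its mean among cells above 0 was lower in KO (6.59 against 8.02). Cd40lg differed by 1.57 and by 0.82 in thinned cells. Icos, a costimulator of the CD28 family, differed by 1.11, but by 0.47 without the cells lacking B2m or the Cd3 genes and by -0.54 in cells with Cd4 above 0 and both CD8 chains at 0. Cd28 (0.17) and Tnfrsf18 (-0.01) hardly differed. Cd27, a receptor of naive and resting memory cells, was in 7 of 39 and 19 of 49 cells, a difference of -2.02.

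Cxcr3, on chromosome X from 101731535 to 101734269, had the largest difference in the other direction. It ran from 0 through a median of 0 to 11.91 in KO-labelled cells and from 0 through 6.77 to 11.53 in WT-labelled cells. It was above 0 in 11 of 39 cells (28.2%, 15 to 44.9%) and 26 of 49 (53.1%, 38.3 to 67.5%). The means were 2.49 ± 4.17 and 5.19 ± 5.04, a difference of -2.70, while cells above 0 had means of 8.83 and 9.79. The difference was -3.58 without the cells lacking B2m or the Cd3 genes, -3.47 in thinned cells and -4.60 in cells with Cd4 above 0 and both CD8 chains at 0. In the population libraries it was -0.22.

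The other Th1 genes were mixed. Of 17 genes 16 passed, 5 at least 1 higher and 1, Cxcr3, at least 1 lower, with a median of 0.25. In cells with Cd4 above 0 and both CD8 chains at 0 the median was -0.32, with 3 of 16 at least 1 higher and 3 at least 1 lower, Ccl5, a chemokine of effector cells, at -1.80 among them. It was -0.08 without the cells lacking B2m or the Cd3 genes. Leaving out cells with 3 other-type markers gave 1.00, and 0.23 where Tyr and Xcr1 were not counted. Tbx21, the factor that commits cells to Th1 and drives Cxcr3, was above 0 in 20.5% and 28.6% and differed by -0.39. Ifng, the Th1 cytokine, was above 0 in 6 and 4 cells, Tnf in 9 and 4 and Stat4 in 48.7% and 49%. Bhlhe40, a factor that favours inflammatory cytokines over Il10, differed by 2.44. Cxcr6, a receptor of tissue T cells, differed by 1.95 in mean level and by -0.33 as the log2 of mean FPKM. Its highest WT-labelled cell stood at 13.33 and its highest KO-labelled cell at 11.87. Of the chemokine receptor and homing list, 20 of 23 passed with a median of 0.37, 6 at least 1 higher and 2 at least 1 lower. Gpr183, which guides T cells toward oxysterols, was highest at 2.33, followed by Cxcr6, Cd44 and the integrin Itgb1 (1.81).

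Genes of naive and memory cells had a median near 0 whose sign depended on the cells kept. Of 18, 16 passed, 2 at least 1 higher and 3 at least 1 lower, with a median of -0.13, against 0.23 for all genes. The median was -0.22 without the cells lacking B2m or the Cd3 genes and -0.52 in thinned cells. It was 0.12 with cells of 3 other-type markers left out, but -0.09 where Tyr and Xcr1 were not counted. In cells with 3 or more core regulatory markers it was 0.51 and in Foxp3-positive cells 0.22. Lef1, a factor of naive cells that partners Tcf7, differed by -1.05 and Tcf7 by -0.63. Klf2, a factor of resting T cells that drives S1pr1, differed by 1.60, against the direction of Lef1 and Tcf7.

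Txnip, which blocks glucose uptake and is removed on activation, lies on chromosome 3 from 96557957 to 96561883 and was the second lowest of the named genes. It ran from 0 through 0 to 10.54 in KO-labelled cells and from 0 through 2.22 to 10.91 in WT-labelled cells, above 0 in 28.2% and 51%, a difference of -2.22. The glycolysis genes had a median of 0.90, with 7 of 19 at least 1 higher and Txnip alone at least 1 lower, and 0.62 (2 of 19) without the cells lacking B2m or the Cd3 genes. Pgk1 (2.42) and Pfkl (1.84) were the highest. Pik3ip1, an inhibitor of PI3 kinase in resting T cells, was above 0 in 3 of 39 cells (7.69%, 1.62 to 20.9%) and 17 of 49 (34.7%, 21.7 to 49.6%), a difference of -2.02. Cells above 0 had a mean of 8.31 in KO and 7.68 in WT.

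**Figure D3:**
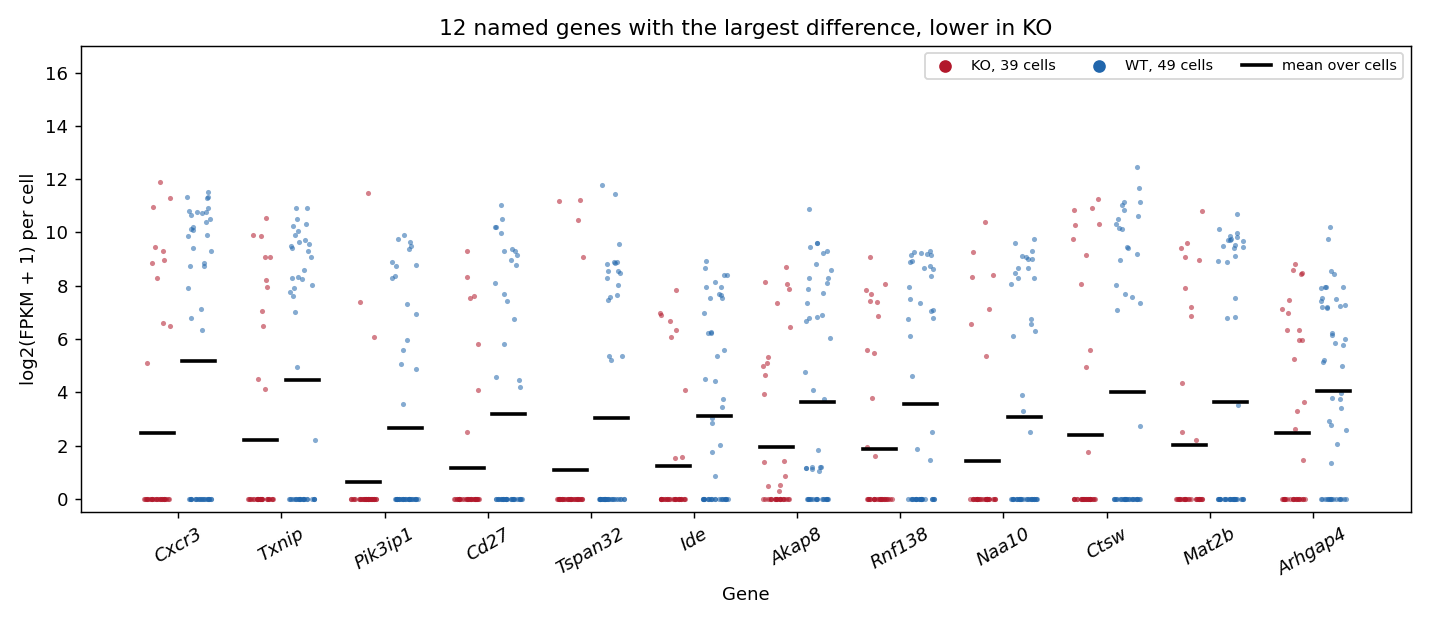
Level per cell, log2(FPKM + 1), of the 12 named genes with the largest difference in the WT direction, KO-labelled cells in red (39) and WT-labelled in blue (49), bars at the mean over cells. Most KO-labelled cells are at 0 for each gene, and for Cxcr3 the highest cell is at 11.91 in KO and 11.53 in WT.

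The remaining named genes have other roles. Zfp868, a zinc finger gene, was in 26 of 39 and 6 of 49 cells and differed by 3.79. Sod1, the cytosolic superoxide dismutase, had medians of 9.61 and 6.31 and a difference of 3.78. Ramp3, a receptor activity modifying protein, differed by 3.55, the membrane protein gene Emp3 by 3.23 and Rbm3, an RNA-binding protein induced by cold, by 3.12. Lower in KO were Tspan32 (-1.96), a tetraspanin of blood cells, Ide (-1.87), the insulin-degrading enzyme, Akap8 (-1.71), a kinase anchor of the nucleus, Rnf138 (-1.70), a ubiquitin ligase, Naa10 (-1.65), an N-terminal acetyltransferase, Ctsw (-1.65), a cathepsin of cytotoxic cells, Mat2b (-1.63), a regulator of S-adenosylmethionine synthesis, and Arhgap4 (-1.59). The 12 highest were at least 1 higher in each of the 14 alternatives that can change a single gene. Of the 12 lowest, Cxcr3, Txnip, Cd27, Akap8 and Mat2b were at least 1 lower in each of the 14. Of the other genes given at 1 or more in size, Nrp1 was past 1 in 2 of the 14, Il2rg and Gata3 in 5, Icos in 6, Il7r in 7, Irf1, B2m and Tnfrsf9 in 8, and Junb, Cd40lg, Zap70 and Lef1 in 9.

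The genes linked to IL-27 and Il10 showed little. Of 25, 21 passed, 3 at least 1 higher (Jak1, Socs1 and Irf1) and 0 at least 1 lower, with a median of 0.39 (0.17 without the cells lacking B2m or the Cd3 genes). Il6st differed by 0.02, Stat3 by 0.61, Maf by 0.84 and Prdm1 by -0.27. Il10 was above 0 in 2 of 39 and 1 of 49 cells and Il21 in the same numbers, so no difference in either was detectable. The coinhibitory receptors had a median of 0.29 over 13 of 18 genes, 3 of which passed through KO-labelled cells only. Of the 13, 1 was at least 1 higher: Pdcd1, at 1.40, in 33.3% and 20.4% of cells. Ctla4 differed by 0.12, Tigit by 0.29, Lag3 by 0.62 and Havcr2 by 0.31. Interferon-stimulated genes had a median of 0.37 over 42 of 44, with 8 at least 1 higher, led by B2m (1.80), and 0.04 with 2 of 42 without the cells lacking B2m or the Cd3 genes. Leaving out cells with 3 other-type markers gave 0.84, with 17 of 39 at least 1 higher. Where Tyr and Xcr1 were not counted it gave 0.34, with 4 of 42.

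The median of the heat shock and stress list was 1.38 (8 of 15 at least 1 higher), led by Gadd45b and the chaperone Hspa5 (2.61), and 0.53 without the cells lacking B2m or the Cd3 genes. The effector and cytotoxic list had a median of 0.53 (4 higher and 1 lower by at least 1 of 13), with Id2 at 2.03 and Ctsw lowest. Of its 22 genes 9, Gzma and Prf1 among them, did not pass, and 4 passed through KO-labelled cells only. The list of exhaustion and activation factors had a median of 0.48, 6 of 15 at least 1 higher. Its leading genes Nr4a1, Bhlhe40 and Nr4a3 are also on lists above. Of 17 apoptosis and survival genes that passed, 3 did so through KO-labelled cells only. This list had a median of 0.48, 6 of 17 at least 1 higher, led by Bcl2a1b (2.53), a gene with near-identical copies, and Bcl2l1 (1.85). T cell receptor signalling genes had one of 0.08, 4 of 20 at least 1 higher, with Cd4 at 2.37, Zap70 at 1.45 and Fyn at -0.87. Proliferation genes had one of -0.01 over 24 of 38, with Pcna at 2.10 and Mki67, in 3 and 7 cells, at -0.16. Regulatory T cell genes had one of 0.24 over 14 of 21, with 2 at least 1 higher (Tnfrsf9 at 1.10 and Nrp1 at 1.04). Few genes of the other helper types passed: 5 of 10 for Th2 (median 0.74, Gata3 1.10), 6 of 12 for Th17 (4 of them through KO-labelled cells only, Tmem176a 1.16) and 8 of 15 for follicular helper cells (0.19, Cd40lg highest). Il4, Il17a and Cxcr5 did not pass.

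**Figure D4:**
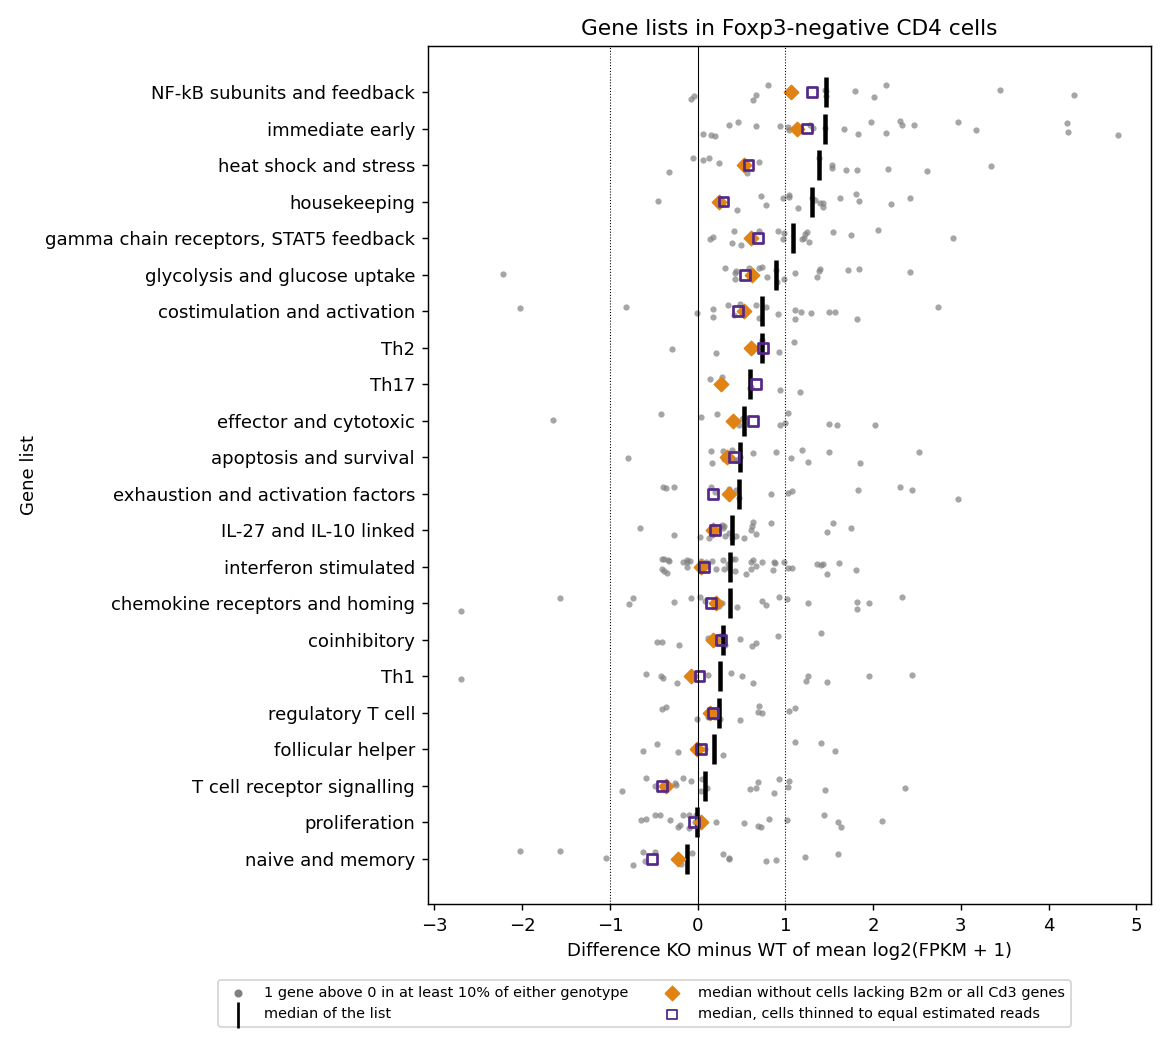
Difference KO minus WT of mean log2(FPKM + 1) (horizontal axis) for the genes of each list (rows) that were above 0 in at least 10% of either genotype, with the list's median (black bar), the median without the cells lacking B2m or the Cd3 genes (orange) and in thinned cells (open squares). The housekeeping median moves from 1.30 to 0.24 and 0.30, and that of immediate early genes from 1.46 to 1.14 and 1.25.

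Splitting the cells by regulatory markers divided the named genes. Cells with under 3 of the 10 core markers were 20 KO-labelled and 26 WT-labelled, and cells with 3 or more 19 and 23. Fos differed by 5.57 in the first and 0.56 in the second, Egr1 by 6.38 and 1.84, and Dusp1 by 6.15 and 2.10. Ier2 differed by 5.82 and 3.64 and Nfkbia by 5.64 and 2.74. Zfp868 (2.15 and 5.52) and Ramp3 (2.61 and 4.51) had the larger difference in cells with 3 or more markers, as did Cxcr3 (-1.68 and -3.93). Ctsw differed by 0.13 in the first and -3.63 in the second, so its place among the lowest genes rested on cells with several regulatory markers. The housekeeping median was 1.75 in the first and 0.46 in the second, and that of immediate early genes 1.52 and 1.62. Most of the 6 WT-labelled cells with B2m at 0 were in the first, and their part in these differences was not tested. These splits were chosen after the values were seen, and the difference between them was not tested.

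The Foxp3-positive cells of the same samples, 39 KO-labelled and 30 WT-labelled, gave other values for several of these genes. Of the 12 highest genes, 5 were also at least 1 higher there (7.92% of 9030 genes were) and 1, Dusp1 at -1.22, at least 1 lower (5.26% were). Ier2 differed by 2.39, Zfp868 by 2.27, Emp3 by 2.18 and Nfkbid by 1.82. Egr1 (-0.88) and Fos (-0.10) did not share the direction. Immediate early genes had 7 of 21 at least 1 higher and 2 at least 1 lower, with a median of 0.39. The median there was 0.38 for housekeeping genes and 0.04 for all genes. Of the 12 lowest genes, 8 were higher in KO there, 1 of them, Mat2b at 1.07, by at least 1, and 0 were at least 1 lower. Txnip was at -0.60 and Cxcr3 at -0.36. The difference between the 2 kinds of cell has no test.

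The population libraries, 1 per genotype and not split by Foxp3, are each a pool of cells, in which fewer cells of a type and less RNA per cell cannot be told apart. Of the 12 highest genes 5 were at least 1 higher there (9.77% of the 8041 genes were): Ier2 (2.76), Egr1 (2.09), Gadd45b (1.64), Fos (1.55) and Sod1 (1.14). Ramp3, at -0.89, lay on the other side. Of the 12 lowest, Pik3ip1 (-2.10) and Txnip (-1.18) were at least 1 lower, 2 of 12, where 14.9% of all genes were. The median of immediate early genes was 0.93, with 22 of 25 higher in KO, beside -0.09 for all genes and 0.18 for housekeeping genes. Of other lists with medians above 1 in the single cells, the NF-kB list had a median of -0.08 (6 of 13 higher), the gamma chain list 0.06 (10 of 18) and the heat shock list -0.16 (4 of 15). Of the naive and memory genes, 0 of 16 were higher there, with a median of -0.75.

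**Figure D5:**
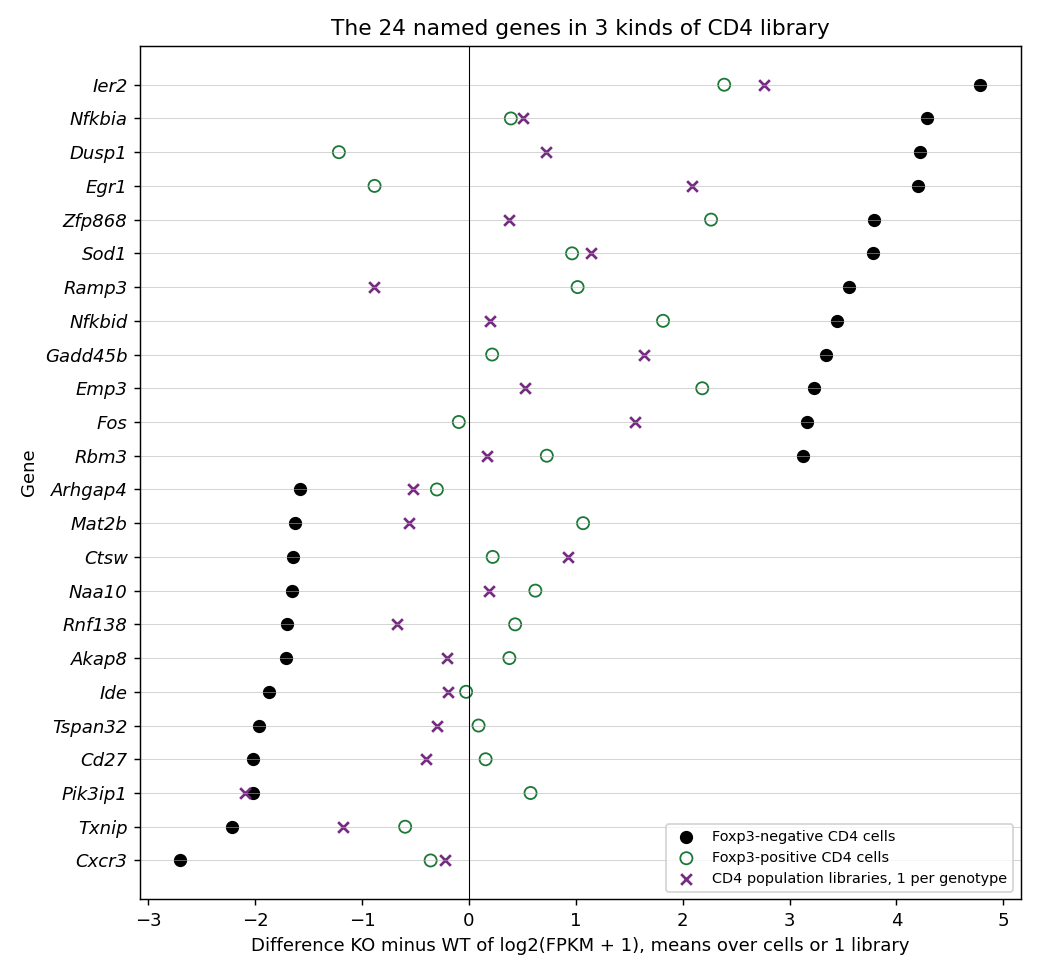
Difference KO minus WT (horizontal axis) of the 24 named genes (rows) in Foxp3-negative cells (black), by which they were chosen, in Foxp3-positive cells (open green) and in the population libraries (crosses). Ier2 is to the right of 2 in all 3, while Dusp1 is at 4.22, -1.22 and 0.72.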

How the data were processed

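Titles gave each Smart-seq2 library its genotype, cell type and kind, and 0 columns were left unmapped. The deposited unit is FPKM, to which the authors had applied TMM scaling, per the labels. Bowtie, RSEM and mm10 are named in the submitters' processing notes, with no versions; the sources used here do not give the annotation. RSEM shares reads between similar transcripts, so close paralogs are uncertain. No molecular identifiers are described, so intervals cover counting error only. The table holds 23420 genes.

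For each gene the mean of log2(FPKM + 1), with a pseudocount of 1, was taken over cells and subtracted, KO minus WT (Python 3.11.15, numpy 2.4.6, pandas 2.3.3, scipy 1.17.1). The scale understates folds of low genes and follows the share of cells above 0. Each genotype is 1 sample, so no test was made and a difference of at least 1 was counted. Settings are compared by the share of genes past it, where the design named their count, a change made after the results were seen. Genes had to be above 0 in 10% of either genotype. Shares carry exact Clopper-Pearson 95% intervals. No doublet caller was run on cells from separate wells.

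Depth was estimated from the spacing of low FPKM values with transcript lengths of 21777 genes in GENCODE M21. A median of 50.7% of low values in kept cells lay within 0.1 of a whole read, so estimates are rough; they served for description and for thinning (20 draws). Scripts were tested on simulated data.

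Named genes were the 12 of largest difference either way above 0 in at least 20% of either genotype, with the share of cells in the same direction, leaving out receptor, immunoglobulin, mitochondrial, predicted, RIKEN, small RNA and ribosomal RNA genes. The 2 extreme members of each list in either direction and 20 fixed genes, Il27ra and Cd4 among them, were also named, apart from a few genes not reported here, and other list members are given to show a list's range. The 22 gene lists and 17 marker lists, like the members, were chosen with earlier results of these data known. Of their symbols 3 did not match. The thinning target, the tolerances used to compare settings, the promoters shown and the split by regulatory markers were chosen after the values were seen. Alternatives changed the pseudocount, the scaling, the filters, the cells kept and the depth.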

Additional observations from a re-analysis of the deposited data

Results flagged for a closer look

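In 8 of the genes named the difference KO minus WT was at least 1 in size in both Foxp3-negative and Foxp3-positive CD4 cells, with opposite signs. Many of the named genes were chosen for a large difference in Foxp3-negative cells. The share of all genes with such opposite signs was not counted. Of the genes passing the filter, 12.5% were at least 1 higher and 1.26% at least 1 lower in Foxp3-negative cells. In Foxp3-positive cells these shares were 7.92% and 5.26%. Each genotype is 1 sample, so these differences between the 2 kinds of cell were not tested. Pdcd1, the gene of PD-1, differed by 1.40 in Foxp3-negative and -3.76 in Foxp3-positive cells. Cd4 differed by 2.37 and -1.49. The glycolytic enzyme genes Pgk1 (2.42 and -2.65) and Pfkl (1.84 and -1.47) were alike in this. Dusp1 differed by 4.22 and -1.22, Bhlhe40 by 2.44 and -1.24, Jak1 by 1.75 and -1.32, and Mat2b by -1.63 and 1.07. Without the cells lacking B2m or the Cd3 genes the Foxp3-negative differences were 1.24 for Pdcd1, 1.58 for Cd4, 2.03 for Pgk1 and 3.69 for Dusp1.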

How the results depend on the processing

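As reported, 12.5% of genes were at least 1 higher and 1.26% at least 1 lower, with a median of 0.23. A pseudocount of 0.1 gave 23.3%, 3.59% and 0.37, and one of 10 gave 3.68%, 0.174% and 0.11. The log2 of mean FPKM gave 25.8% and 12.1%. Leaving out cells that lack B2m or the Cd3 genes gave 7.59%, 3.18% and 0.12. A filter of 20% of cells gave 18.9% higher and a median of 0.33, and no filter 7.33%, 0.736% and 0.060. Genes at least 1 lower were 2.79% with each cell scaled to 1000000, 3.14% with at least 2000 genes per cell, 4.45% with Cd4 above 0 and both CD8 chains at 0, 2.75% without cells holding 3 markers of other types, 4.78% without cells holding 3 core regulatory markers (median 0.12), 3.66% in cells matched on genes detected (34 against 34, median 0.10) and 3.59% in thinned cells. Thinned cells scaled to 1000000, an alternative chosen after seeing the data, gave 9.41%, 5.31% and 0.10, with the housekeeping median at -0.024 and B2m at -0.024. Signs also changed for Cxcr6 as the log2 of mean FPKM (-0.33), and for Ctsw (0.13) and Il7r (-0.70) without cells holding 3 core regulatory markers. They changed for Icos (-0.54) and Irf1 (-0.60) in cells with Cd4 above 0 and both CD8 chains at 0. Cd4 stood at -0.017 there, but that setting leaves out cells without Cd4 and so removes any difference in its detection. The sign of Il2rg changed (-0.13) in thinned cells scaled to 1000000. The causes were not tested. Of 12 list medians under 0.5 in size, 8 took the other sign in at least 1 alternative, and these were not counted as called, a limit set after they were seen. Il27ra ran from -1.78 to 1.16 over the alternatives. No paired analysis was possible because each genotype is 1 sample and each library number in the titles occurs once.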

Other observations

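Ier2 lies 0.631 Mb from Il27ra, and Zfp868, also among the 12 highest genes, 14.4 Mb from it on chromosome 8. Among genes above 0 in at least 10% of either genotype, 10 of 26 within 1 Mb of Il27ra were at least 1 higher in KO-labelled cells (38.5%) and 1 at least 1 lower. Within 5 Mb these were 14 and 2 of 50, and within 20 Mb 33 and 6 (21.3% and 3.87% of genes). On the rest of the chromosome they were 21 and 6 (9.46% and 2.70%), and on other chromosomes 899 and 86 of 7127 (12.6% higher). The medians were 0.47 within 1 Mb, 0.44 within 5 Mb and 0.23 on other chromosomes. The windows were chosen after Ier2 and Zfp868 were seen, the genes share the cells, and nothing was tested.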
